A study of Mus musculus with 14 samples.

Results

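Expression of 10 heat shock genes was examined in mouse lung adenocarcinomas with and without inactivation of Setd2: the heat shock factor Hsf1 and the chaperone genes Hspa1a, Hspa1b, Hspa8, Hspa9, Hsp90aa1, Hsph1, Dnajb1, Hspd1 and Hspe1. They were chosen by name, not by their values, from the 52550 genes of the deposited table, and all 10 were among the 16836 genes that passed the expression filter. RNA was sequenced from 6 KPY-Ctrl and 8 KPY-Setd2KO tumors. All tumors arose in KPY mice of mixed B6J/129S4vJae background that carry, among other alleles, Trp53 flox/flox and a Cre-dependent YFP in Rosa26, after intubation with a lentivirus carrying Cre, Cas9 and a guide RNA. The guide was a non-targeting sgBGal in KPY-Ctrl and sgSetd2 in KPY-Setd2KO, so both groups lack p53 and carry Cas9, and the cells of one KPY-Setd2KO tumor need not all have lost Setd2. The study's methods describe tumors that were dissected, digested with enzymes and sorted for live YFP-positive cells, whereas the deposited labels describe RNA from cell lines, and this conflict was not resolved. The age at collection and the mouse of each tumor are not given. For YFP RNA of 6 KPY-Ctrl and 8 KPY-Setd2KO tumors, the study counts fewer mice than tumors in either group. Some tumors of each group therefore share a mouse. All tests here treat tumors as independent, so p-values measure only the spread between tumors and not that between mice.

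Heat shock proteins are chaperones that hold, fold or refold other proteins. The factor HSF1 rests in the cytoplasm of unstressed cells. On heat or other protein damage it forms trimers and binds heat shock elements, inverted repeats of GAA and TTC units, in front of its target genes. HSP70 proteins (Hspa genes) bind exposed hydrophobic stretches in a cycle that J-domain proteins such as DNAJB1 start and exchange factors such as HSPH1 end. Hspa1a and Hspa1b are the strongly inducible copies, while Hspa8 is expressed constitutively. Tumor cells often keep chaperone levels high, and enzymatic digestion of a tissue is itself known to induce Hspa1a, Hspa1b and immediate early genes.

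The promoters of the inducible pair and the element shared by Hspd1 and Hspe1 are shown because, of the 10 genes, the first pair varied most between tumors, while the genes behind the longest element varied less. RefSeq sequences (GRCm38.p6) of the 250 bases before a start were examined for 6 of the 10 genes, with 9 windows in all. Not every sequence at hand was examined, and the count of genes with a match refers to these 6 genes. A pair of adjoining heat shock units (GAANNTTC or TTCNNGAA, which overlap where units continue, and each of which reads the same on both strands) was found in windows of 5 of these genes, Hspa1a, Hspa1b, Hsph1, Hspd1 and Hspe1, and in neither window of Dnajb1. It occurs in 12.8% of all 32851 windows of this length. Capitals mark the unit pair in the promoters, which lie on the minus strand of chromosome 17 at chr17:34972157-34972406 for Hspa1a and chr17:34959239-34959488 for Hspa1b.
Hspa1a: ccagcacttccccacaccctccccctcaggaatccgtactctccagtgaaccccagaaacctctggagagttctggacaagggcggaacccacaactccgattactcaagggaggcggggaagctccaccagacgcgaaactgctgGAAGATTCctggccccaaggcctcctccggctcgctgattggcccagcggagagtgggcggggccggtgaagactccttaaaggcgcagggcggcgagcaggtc
Hspa1b: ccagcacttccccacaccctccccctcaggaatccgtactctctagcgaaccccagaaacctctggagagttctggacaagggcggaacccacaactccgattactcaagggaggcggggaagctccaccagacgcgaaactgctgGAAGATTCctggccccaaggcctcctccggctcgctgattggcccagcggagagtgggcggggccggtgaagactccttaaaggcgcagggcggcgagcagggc

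Of the 250 bases, 247 are identical between the copies, and the unit pair starts 104 bases before either start. The Hspa1a base, its position from the 5′ end and the Hspa1b base give the differences as C44T, T47C and T249G. Hspd1 (chromosome 1, 55077835 to 55088243, minus strand) and Hspe1 (55088132 to 55091307, plus strand) stand head to head. RefSeq also gives Hspd1 a start beyond that of Hspe1, and the window before it (chr1:55088244-55088493) holds 0 unit pairs. Between the other Hspd1 start and that of Hspe1 lies a stretch that an exon of a longer GENCODE transcript of Hspd1 also covers. It holds 4 adjoining units in 18 bases, at 55088059 to 55088076. They are printed in capitals with 6 bases on either side (plus strand, chr1:55088053-55088082).
Hspd1 and Hspe1: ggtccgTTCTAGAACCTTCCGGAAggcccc
Runs of 3 adjoining units occur in 0.466% of all promoter windows and runs of 4 units in 0.0213%. These matches describe letters in the sequence and are not evidence of binding.

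Libraries held 27866266 to 51828846 counts in KPY-Ctrl and 20072236 to 40604404 in KPY-Setd2KO. Setd2, the targeted histone methyltransferase gene, had a median of 53.8 CPM (counts scaled by the TMM-adjusted library size, in CPM; range 41.9 to 63.6) in KPY-Ctrl and 30.4 CPM (17.9 to 47.4) in KPY-Setd2KO. Its log2 fold change of -0.74 (standard error 0.22) missed the threshold across all genes (edgeR, adjusted p = 0.175), whereas all 3003 ways to split the tumors gave p = 0.004662 for Setd2 by itself (two-sided exact permutation test). The summed markers of lung epithelium ranged from 7064 to 71720 CPM over all tumors. Leukocyte markers, summed over 22 genes that all had counts, ranged from 733.7 to 11570 CPM in KPY-Ctrl and from 428.7 to 15900 CPM in KPY-Setd2KO, although the cells are described as sorted. In bulk RNA, fewer cells of a type and less RNA per cell cannot be told apart.

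Hspa1a and Hspa1b varied far more between tumors of one genotype than the other chaperones did. Hspa1a (ENSMUSG00000091971.3, chromosome 17, 34969190 to 34972156) measured 2862, 1418.8, 104.81, 42.463, 33.627 and 17.817 CPM in KPY-Ctrl tumors 1 to 6. In KPY-Setd2KO tumors 1 to 8 Hspa1a measured 1294.4, 2773.4, 1644, 1920.5, 98.706, 207.24, 185.87 and 142.42 CPM. Thus 2 KPY-Ctrl and 4 KPY-Setd2KO tumors had 1294.4 CPM or more, and the other 8 had 207.24 CPM or less. The KPY-Setd2KO range, 98.706 to 2773.4 CPM, lay within the KPY-Ctrl range, 17.817 to 2862 CPM. The medians were 73.6 CPM in KPY-Ctrl and 750.83 CPM in KPY-Setd2KO. Among the 8 low tumors, Hspa1a ran from 17.817 to 104.81 CPM in KPY-Ctrl and from 98.706 to 207.24 CPM in KPY-Setd2KO. Hspa1b (ENSMUSG00000090877.3, chromosome 17, 34956436 to 34959238) ranged from 32.0 to 2024.3 CPM in KPY-Ctrl (median 137.84) and from 183.53 to 2020.2 CPM in KPY-Setd2KO (median 551.69). The same 6 tumors were high for Hspa1b. Its other 8 values were 32.0 to 161.64 CPM in KPY-Ctrl and 183.53 to 300.16 CPM in KPY-Setd2KO. This division was made after the values were seen, and genotype was not tested within it. Across the 14 tumors, the highest value was 161 times the lowest for Hspa1a and 63.2 times for Hspa1b, against 5.15 times for Dnajb1, 3.66 for Hsph1, 2.80 for Hspe1, 2.48 for Hspa8, 2.31 for Hsp90aa1, 1.81 for Hsf1, 1.73 for Hspa9 and 1.66 for Hspd1. By its SD within genotype on the log2 scale, Hspa1a stood at percentile 97.9 of all genes tested and Hspa1b at 92.4, whereas Hspa9 stood at 1.59, Hspd1 at 1.60 and Hsf1 at 4.45. In the plot of values by tumor, Hspa1a, Hspa1b and Dnajb1 split within both genotypes.

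**Figure D1:**
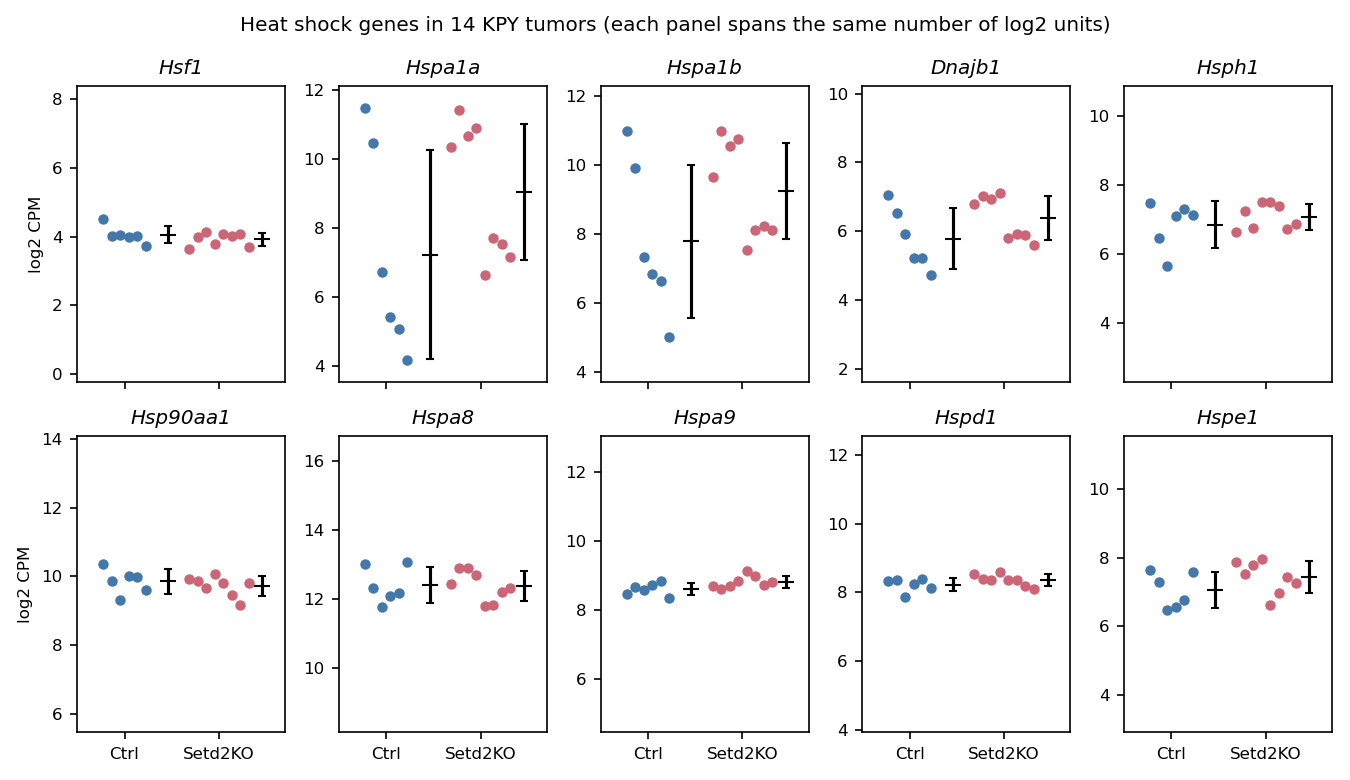
Log2 CPM (y axis) of the 10 heat shock genes in KPY-Ctrl (blue, 6 tumors) and KPY-Setd2KO (red, 8 tumors), 1 point per tumor in replicate order from left to right, with mean and SD as black bars. Each panel spans the same number of log2 units. Hspa1a and Hspa1b spread over most of their panels within either genotype, and Hspa9, Hspd1 and Hsf1 stay in a narrow band.

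To ask whether Setd2 loss changed these genes, each of the 16836 genes was tested for a genotype effect (edgeR, quasi-likelihood). None of the 10 genes was called (adjusted p under 0.05 and absolute log2 fold change over 1), where 0% of all genes were called, and none had an unadjusted p under 0.05, where 13.7% of all genes did. DESeq2 also called none of the 10, against 2.25% of the genes it tested. The median log2 fold change of the 10 genes was 0.18, against 0.03 over all genes tested. Hspa1a had a log2 fold change of 0.47 (standard error 1.15, adjusted p = 0.906) and Hspa1b of 0.65 (standard error 0.88, adjusted p = 0.821) in edgeR's test. The differences in mean log2 CPM were larger, 1.83 for Hspa1a (two-sided exact permutation test, p = 0.1925) and 1.46 for Hspa1b (p = 0.1615 in the same exact test), as edgeR compares mean counts and the permutation test means of logs. Without KPY-Ctrl 1 the fitted log2 fold change of Hspa1a was 1.68, and without KPY-Setd2KO 2 it was 0.07, while that of Hspa1b was 1.70 and 0.36.

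Dnajb1 (ENSMUSG00000005483.10, chromosome 8, 83608193 to 83612653), the J-domain partner of inducible HSP70, ranged from 26.7 to 132.98 CPM in KPY-Ctrl (median 49.2) and from 49.0 to 137.48 CPM in KPY-Setd2KO (median 85.4). The 6 tumors with high Hspa1a were also the 6 highest for Dnajb1, at 92.9 CPM or more, and the other 8 lay at 60.8 or less. Its log2 fold change between genotypes was 0.49 (standard error 0.38, adjusted p = 0.638 in edgeR's test). Hsph1 (ENSMUSG00000029657.15, chromosome 5, 149614287 to 149636376), which encodes the HSP110 exchange factor, did not follow them: it ranged from 50.1 to 179.65 CPM in KPY-Ctrl (median 139.04) and from 99.7 to 183.21 CPM in KPY-Setd2KO (median 134.37). Its highest values included KPY-Ctrl 1 and KPY-Setd2KO 4, which had high Hspa1a, and KPY-Setd2KO 5, which did not. Its log2 fold change was 0.15 (standard error 0.26, adjusted p = 0.869) and became -0.02 without KPY-Ctrl 3.

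Hsp90aa1 (ENSMUSG00000021270.13, chromosome 12, 110690605 to 110702728), the inducible form of cytosolic HSP90, ranged from 631.26 to 1324.6 CPM in KPY-Ctrl (median 976.87) and from 573.81 to 1073.4 CPM in KPY-Setd2KO (median 894.17). The groups overlapped, with a log2 fold change of -0.16 (standard error 0.19, adjusted p = 0.795). The constitutive HSP70 gene Hspa8 (ENSMUSG00000015656.17, chromosome 9, 40800984 to 40810087) ranged from 3488.9 to 8651 CPM in KPY-Ctrl (median 4879) and from 3571.6 to 7592.3 CPM in KPY-Setd2KO (median 5320.4). KPY-Ctrl 6, the tumor with the least Hspa1a and Hspa1b, had the most Hspa8. The log2 fold change of Hspa8 was -0.05 (standard error 0.26, adjusted p = 0.96), and its sign changed when any of 4 single tumors was left out. Hsf1 (ENSMUSG00000022556.9, chromosome 15, 76477422 to 76501913) ranged from 13.2 to 22.6 CPM in KPY-Ctrl (median 16.1) and from 12.5 to 17.3 CPM in KPY-Setd2KO (median 16.0). Its RNA differed by -0.13 on the log2 scale (standard error 0.14, adjusted p = 0.763), and RNA does not show how much of the factor is active.

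Of the mitochondrial chaperones, Hspd1 and Hspa9 varied little between tumors and Hspe1 varied more. Hspd1 (ENSMUSG00000025980.14) encodes HSP60, the barrel in which imported proteins fold, and ranged from 233.81 to 332.49 CPM in KPY-Ctrl (median 315.62) and from 273.33 to 387.11 CPM in KPY-Setd2KO (median 329.12), a log2 fold change of 0.13 (standard error 0.13, adjusted p = 0.74). Hspe1 (ENSMUSG00000073676.4), its lid, ranged from 89.2 to 201.14 CPM in KPY-Ctrl (median 133.18) and from 98.3 to 249.57 CPM in KPY-Setd2KO (median 179.1). Its log2 fold change was 0.36 (standard error 0.26, adjusted p = 0.59), so the 2 genes that share the printed element differed in how far they varied.

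Hspa9 (ENSMUSG00000024359.8) encodes mortalin, the HSP70 of the mitochondrial matrix and the motor of protein import. It ranged from 324.46 to 453.34 CPM in KPY-Ctrl (median 394.38) and from 387.04 to 562.62 CPM in KPY-Setd2KO (median 436.46). The groups overlapped, and the log2 fold change was 0.22 (standard error 0.14, adjusted p = 0.525 in edgeR's test). Of the exact permutation tests of the 10 genes taken one at a time, that of Hspa9 alone gave a raw p under 0.05 (p = 0.04296, two-sided), which does not account for the number of genes looked at.

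Per kilobase of exon, the genes formed a ladder of medians: 1181 CPM per kb for Hspa8, 232.5 for Hsp90aa1, 123.4 for Hspd1, 112 for Hspe1, 103.3 for Hspa1b, 96.9 for Hspa9, 66.2 for Hspa1a, 19.1 for Hsph1, 18.9 for Dnajb1 and 2.27 for Hsf1. Hspa8 exceeded Hsp90aa1, Hsp90aa1 exceeded Hspd1 and Dnajb1 exceeded Hsf1 in 14 of 14 tumors. The neighbours between Hspd1 and Dnajb1 in this order kept it in only 6 to 11 of 14 tumors. Hspa1a and Hspa1b thus moved through the ladder: in KPY-Ctrl 1 Hspa1a reached 964.63 CPM per kb, and in KPY-Ctrl 6 it measured 6.01. Some reads cannot be placed with certainty, because 61.7% of the 75-base stretches of Hspa1a transcripts and 55.8% of those of Hspa1b occur in other genes' transcripts, mostly in each other. Such shared stretches also made up 42.8% for Hsp90aa1, 33% for Hspa8, 31% for Hspd1 and 14.6% for Hspe1, against 0.227% for Hspa9 and 0% for Hsf1, Hsph1 and Dnajb1.

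The sum of both copies does not depend on how reads were divided between them. It measured 4886.4, 2376.3, 266.45, 156.51, 132.54 and 49.861 CPM in KPY-Ctrl 1 to 6 and 2097.6, 4793.7, 3143.7, 3638.1, 282.23, 485.92, 486.03 and 418.62 CPM in KPY-Setd2KO 1 to 8. No tumor lay between 486.03 and 2097.6 CPM. The share of the copies moved with the sum: the ratio of Hspa1a to Hspa1b was 1.10 to 1.61 in the 6 tumors above this gap and 0.34 to 0.74 in the 8 below it, as the plot of ratio against sum shows. Whether the division of shared reads contributes to this shift was not tested.

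**Figure D2:**
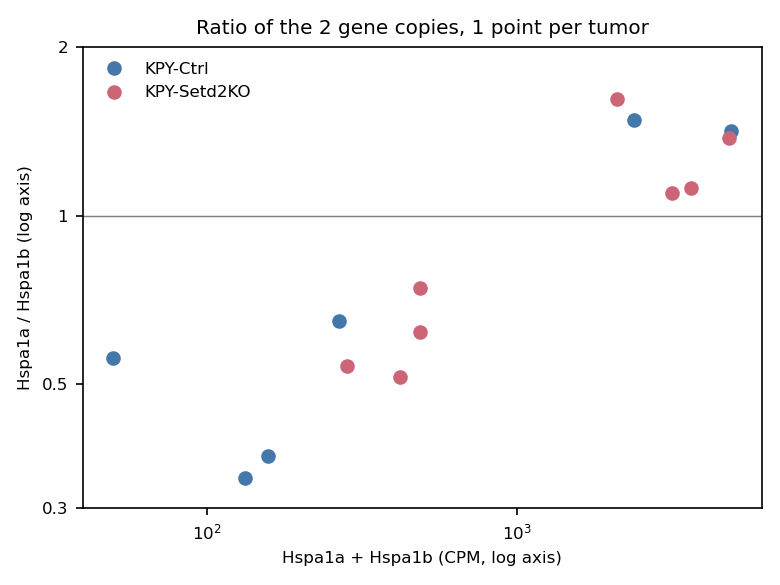
Ratio of Hspa1a to Hspa1b (y axis, log scale) against their sum in CPM (x axis, log scale), 1 point per tumor, KPY-Ctrl in blue and KPY-Setd2KO in red. The 6 tumors with a sum of 2097.6 CPM or more have ratios above 1, and the other 8 have ratios of 0.74 or less, in both genotypes.

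Immediate early genes, such as Fos, Jun and Egr1, are switched on within minutes of many stimuli, including handling of cells. Their mean log2 CPM over 23 genes, none of them a heat shock gene, was 8.01 and 7.41 in KPY-Ctrl 1 and 2 and 4.74 to 5.26 in KPY-Ctrl 3 to 6. In KPY-Setd2KO it was 7.04 to 8.02 in tumors 1 to 4 and 5.05 to 5.62 in tumors 5 to 8. The 6 tumors with high Hspa1a and Hspa1b were therefore the 6 with a high immediate early score. The leukocyte-marker score (mean log2 CPM of the marker genes) was 7.18 to 8.04 in these 6, and the others ran from 3.27 to 6.73. KPY-Ctrl 6 set the scores apart: it had a leukocyte-marker score of 6.73, an immediate early score of 5.26 and the lowest sum of Hspa1a and Hspa1b, 49.861 CPM.

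**Figure D3:**
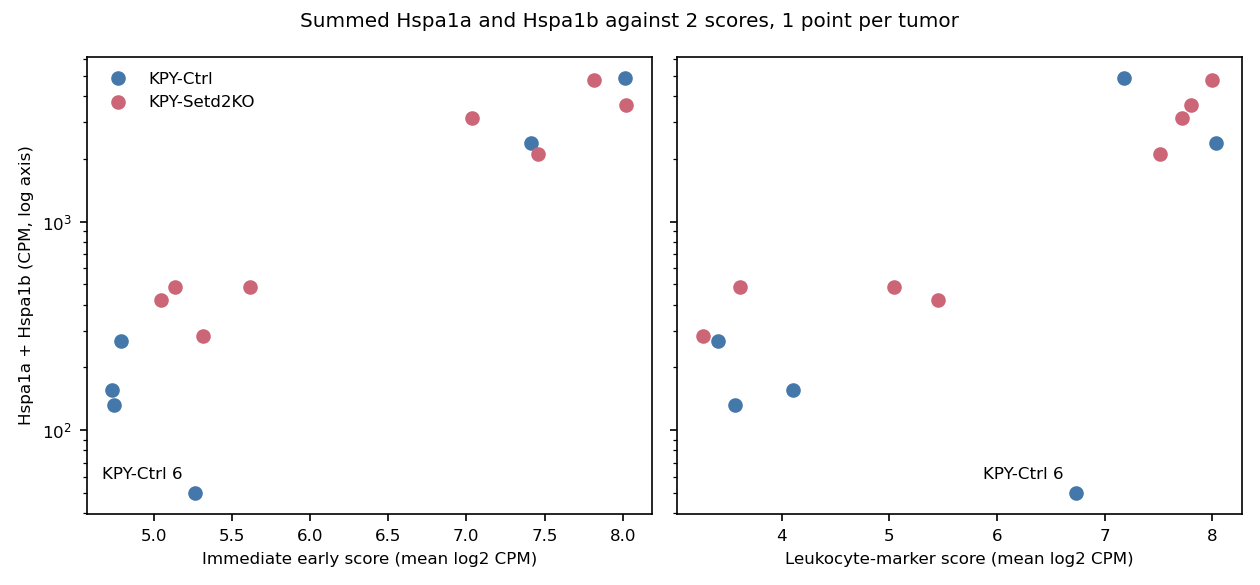
Sum of Hspa1a and Hspa1b in CPM (y axis, log scale) against the immediate early score (left) and the leukocyte-marker score (right), both in mean log2 CPM, 1 point per tumor, KPY-Ctrl in blue and KPY-Setd2KO in red. KPY-Ctrl 6 lies with the low tumors on the left and apart from the trend on the right, at 49.861 CPM.

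With genotype in the fit, 5 of the 10 genes had an immediate early slope above 0 (edgeR, adjusted p under 0.05), where 26.4% of all genes did, and none had one below 0. These were Hspa1a, Hspa1b, Dnajb1, Hspa8 and Hspe1. Hspa1a rose by 1.65 on the log2 scale per unit of score (standard error 0.17, adjusted p = 1.31e-05 in edgeR's test), and 0.659% of all genes tested had a slope at least as large. The slope was 1.15 for Hspa1b (standard error 0.14, adjusted p = 3.68e-05; 3.49% of genes) and 0.49 for Dnajb1 (standard error 0.06, adjusted p = 6.9e-05; 12.6% of genes). The same 5 genes had a leukocyte-marker slope above 0, where 27.8% of all genes did, from 1.01 for Hspa1a to 0.21 for Hspa8. The immediate early slope of Hspa8 (0.22, adjusted p = 0.0388) lost its call when any of 10 single tumors was left out, with adjusted p up to 0.101, and the other slopes of these 5 genes kept theirs in all 14 such fits. The immediate early score has a gap, and whether these slopes hold on either side of it could not be tested: in edgeR fits to the 6 tumors above the gap alone and to the 8 below it alone, 0 genes had a called slope, the genes of the score included. With library size only in place of TMM, the slope stayed past the threshold for Hspa1a, Hspa1b and Dnajb1 but not for Hspa8 (adjusted p = 0.267) and Hspe1 (adjusted p = 0.0687), and the slope of Hspa9 was -0.18 (adjusted p = 0.0436). That scaling gave 2889 genes with a slope above 0 and 6182 below, against 4444 and 4772 with TMM. No label names a digestion, sort or sequencing batch, so a batch with the same split cannot be told apart from it.

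With both scores in the fit, the 5 genes fell into separate sets by which slope passed the threshold. No difference between slopes was tested. The tumors above the gap in the immediate early score also had the highest leukocyte-marker scores, so the scores largely rose together. Hspa1a (slope 1.76, standard error 0.35, adjusted p = 0.0165), Hspa1b (1.27, standard error 0.30, adjusted p = 0.034) and Dnajb1 (0.66, standard error 0.13, adjusted p = 0.0127) kept an immediate early slope, where 2.06% of all genes had one above 0. Their leukocyte-marker slopes were then -0.09, -0.10 and -0.14, none past the threshold. Hspe1 (0.24, standard error 0.07, adjusted p = 0.028) and Hspa8 (0.26, standard error 0.08, adjusted p = 0.04997) instead had a leukocyte-marker slope, where 9.56% of all genes had one above 0. The separation of these sets leans on few tumors. When each tumor was left out in turn, the adjusted p of the immediate early slope ranged from 0.00594 to 0.0448 for Dnajb1, from 0.0105 to 0.0631 for Hspa1a and from 0.0211 to 0.111 for Hspa1b. The call of Hspa1a was lost without KPY-Ctrl 1 (adjusted p = 0.0631), that of Hspa1b in 8 of 14 such fits, and that of Dnajb1 in none. Without KPY-Ctrl 6, the immediate early slope was 1.29 for Hspa1a and 0.82 for Hspa1b. Those of Hspa8 and Hspe1, below 0 with all tumors, were then 0.041 and 0.057, neither called. Tumors were not left out in this way for the leukocyte-marker slopes of Hspa8 and Hspe1, of which that of Hspa8 lies just past the threshold. With the leukocyte-marker score in the fit, genotype called none of the 10 genes, where 1.4% of all genes were called.

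**Figure D4:**
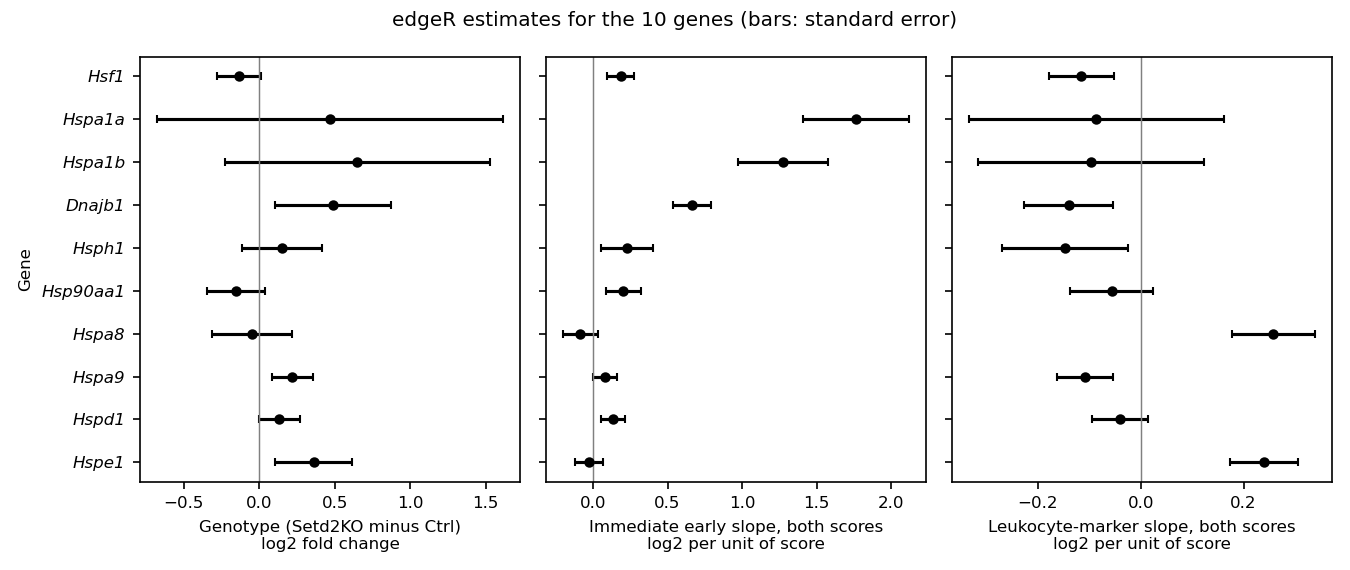
edgeR estimates with standard errors for the 10 heat shock genes: log2 fold change between genotypes (left), and slopes on the immediate early score (middle) and the leukocyte-marker score (right) from the fit with both scores, in log2 units per unit of score. No genotype estimate passed the test, the middle panel sets Hspa1a, Hspa1b and Dnajb1 apart (1.76, 1.27 and 0.66), and the right panel Hspa8 and Hspe1 (0.26 and 0.24).

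The genes also differed in which genes they followed from tumor to tumor. Pearson's r of log2 CPM over the 14 tumors, given as a description since the split above sets much of it, was 0.987 between Hspa1a and Hspa1b and 0.982 between Hspa1a and Dnajb1. It was 0.804 between Hspa8 and Hspe1, -0.665 between Hspa8 and Hspa9 and 0.04 between Hspa1a and Hsph1. Outside the 10 genes, the patterns most like the sum of Hspa1a and Hspa1b were those of Sqstm1 (r = 0.96), an autophagy receptor, Sertad1 (0.957), Nsd3 (0.949), Pnrc1 (0.945) and Ppp1r15a (0.943), a stress-induced phosphatase subunit. For Hspd1 they were Rnf217 (0.918), Atad1 (0.903), Col4a3bp (0.901), Pcgf5 (0.892) and Shoc2 (0.892), for Hsp90aa1 they were Sdk1 (0.855), 1190002N15Rik (0.847), Mettl13 (0.844), Hsd17b7 (0.843) and Rcc1 (0.835), and for Hsf1 the highest was Gorasp2 (0.78), followed by Pim2, Neurl4, Pcnx3 and Rusc2 at 0.757 to 0.724.

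Other chaperone families were read from lists, in which edgeR called no gene on genotype alone, while Dnaja4 was called by DESeq2 and by edgeR with a score as a covariate. Among 16 other genes known to be induced by Hsf1, 3 had an unadjusted p under 0.05, against 13.7% of all genes, all of them higher in KPY-Setd2KO (Dnaja4, Dnajb4 and Ubb), and the list's median log2 fold change was 0.21. Dnaja4, a J-domain cochaperone, ranged from 0.86 to 2.38 CPM in KPY-Ctrl (median 2.07) and from 2.08 to 13.0 CPM in KPY-Setd2KO (median 8.06), with a log2 fold change of 1.99 (standard error 0.42, adjusted p = 0.116 in edgeR's test). DESeq2 gave it an adjusted p of 0.000356, edgeR with the leukocyte-marker score 0.0294 and edgeR with the immediate early score 0.0284. Prefoldin subunit Pfdn2, which hands nascent actin and tubulin to the TRiC chaperonin, measured 50.2 to 72.2 CPM in KPY-Ctrl and 78.0 to 148.51 CPM in KPY-Setd2KO, and the groups did not overlap. Its log2 fold change was 0.77 (standard error 0.17, adjusted p = 0.116 in edgeR's test, 0.0303 with the leukocyte-marker score). DESeq2 gave Pfdn2 an adjusted p of 0.0019 with a log2 fold change of 0.77, short of the threshold of 1. Hsp90ab1, the constitutive cytosolic HSP90, also had groups that did not overlap, 2736.5 to 3209.8 CPM against 3247.4 to 4607.9 CPM. Its log2 fold change of 0.33, also short of 1, had an adjusted p of 0.32 in edgeR's test and 0.0447 in DESeq2's. How many of all genes have groups that do not overlap was not counted. Both genes were named for the smallest p of their lists, which makes such a separation more likely.

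Of 14 J-domain cochaperones tested, 3 had an unadjusted p under 0.05, against 13.7% of all genes (Dnaja4, Dnajb4 and Dnajb6, all higher in KPY-Setd2KO), and the median log2 fold change was 0.31. Of 11 exchange factors and inhibitors of HSP70, 4 had an unadjusted p under 0.05, against 13.7% of all genes, and the median log2 fold change was -0.04. Bag1 had a log2 fold change of 0.46 (adjusted p = 0.214 in edgeR's test and 0.0343 in DESeq2's). Bag2 had one of -1.42 (adjusted p = 0.248 in edgeR's test and 0.103 in DESeq2's), Bag4 one of -0.56 and Bag6 one of -0.30. Of 10 other HSP70 and HSP110 genes the smallest p was that of Hspa4 (0.50, adjusted p = 0.3), of 17 chaperones of the endoplasmic reticulum that of Calr (0.55, adjusted p = 0.363), of 6 small heat shock proteins that of Hspb1 (1.20, adjusted p = 0.419), of 18 mitochondrial quality-control genes that of Trap1 (-0.29, adjusted p = 0.435), and of 7 heat shock factors and regulators that of Hdac6 (-0.61, adjusted p = 0.47). The genes named beside the one with the smallest p of their list were chosen after their values were seen.

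On the immediate early score, 26.4% of all genes had a slope above 0 and 28.3% one below 0. Of the 16 other genes known to be induced by Hsf1, 5 had a slope above 0 and 5 below 0, with a median of 0.03, against -0.02 over all genes tested. Those above 0 included Hspa1l, Bag3, Cacybp and Chordc1, and those below 0 were Serpinh1, Hspb8, Hspb1, Cryab and Hspa4l. Hspa1l, a testis-rich HSP70 gene beside Hspa1a, had a slope of 1.03 but averaged under 1 CPM. Of the 6 small heat shock proteins tested, 5 had a slope below 0, against 28.3% of all genes (Hspb1, Hspb2, Hspb8, Hspb11 and Cryab). All 14 lung epithelial markers had a slope below 0 and 15 of 19 leukocyte markers one above 0. With the leukocyte-marker score also in the fit, 1 of the 14 epithelial markers and 0 of the 6 small heat shock proteins had a slope below 0. Over all 16836 genes, 346 then had a slope above 0 and 339 one below 0. The part of cell composition in these slopes was not tested beyond this fit. Of 17 endoplasmic reticulum chaperones, 10 had a slope above 0 and 1 below 0, beside the same shares of all genes. With both scores in the fit, 1 of these 17 and 4 of the 16 inducible genes had a slope above 0, and 0 of either list one below 0. In the plot of gene lists, the small heat shock proteins lie mostly to the left of 0 on the score and the 10 heat shock genes mostly to the right.

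**Figure D5:**
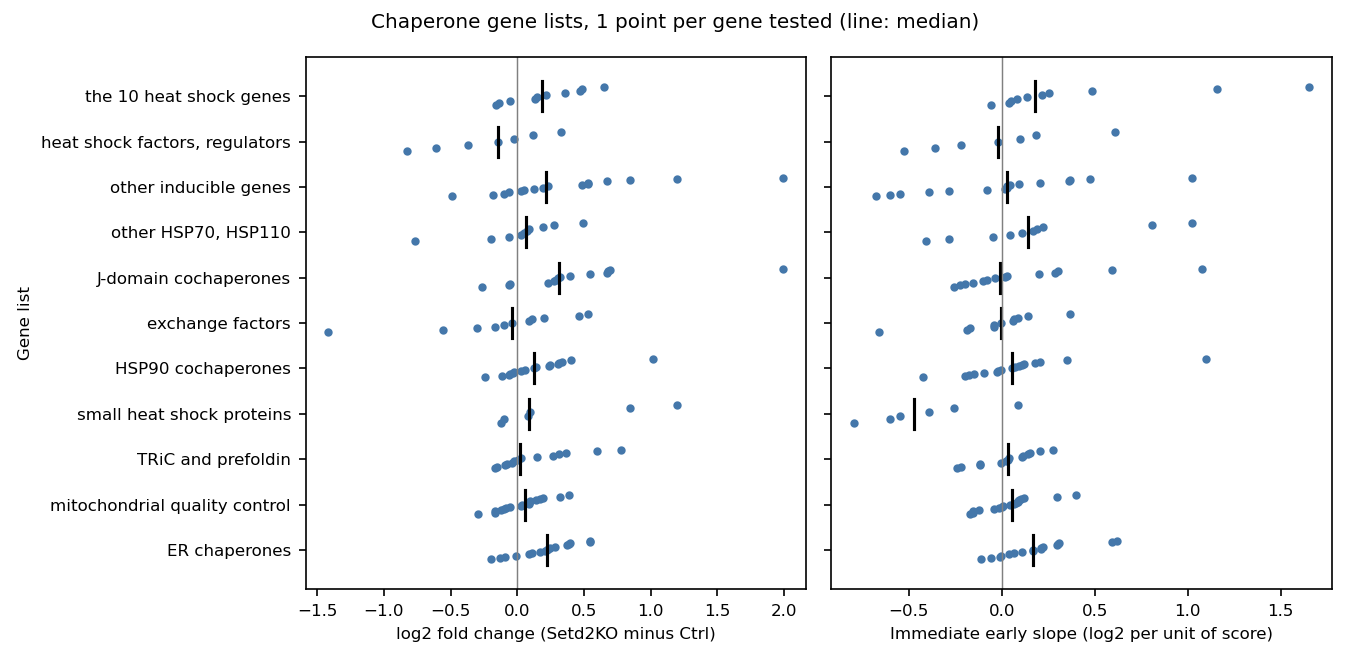
Log2 fold change between genotypes (left) and immediate early slope in log2 units per unit of score (right) for chaperone gene lists, 1 point per gene tested and a black line at each list's median. The slopes are from the fit without the leukocyte-marker score. The medians of the 10 heat shock genes are 0.18 (left) and 0.18 (right), and that of the small heat shock proteins on the right is -0.47.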

How the data were processed

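RNA was sequenced from 6 KPY-Ctrl and 8 KPY-Setd2KO tumors. Per the study's methods, 75-bp single-end reads were quantified by the authors with Salmon 0.8.2 against GRCm38.p5, giving estimated counts for Ensembl genes, which the authors deposited unnormalized and in whole numbers. The 8 largest values are written with 3 digits, and none of them belongs to the 10 genes. Symbols, positions and exon lengths were taken from GENCODE M21 (GRCm38), which matched 52403 of 52550 IDs.

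The analysis used edgeR 4.0.16 under R 4.3.3 (TMM, filterByExpr, robust quasi-likelihood test, Benjamini-Hochberg adjustment over all 16836 genes tested). Slope calls needed an adjusted p under 0.05, and genotype calls in addition a log2 fold change past 1 in either direction. Log2 CPM used a prior count of 2. Scores were the mean log2 CPM of the immediate early or leukocyte-marker list and entered the fit beside genotype. DESeq2 1.42.0, other scalings and filters, covariates, a replicate block and leaving out each tumor were alternatives. The genotype fit and the fit with the immediate early score were tried on simulated counts of independent tumors. Shared mice and the fit with both scores were not simulated, so that trial says nothing about them. At 20072236 to 51828846 counts per tumor, the spread between tumors and not counting error limits these comparisons.

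Named genes were Setd2, the 10 genes, the gene with the smallest genotype p in each list, and the 5 genes most correlated with the sum of Hspa1a and Hspa1b, Hsp90aa1, Hspd1 and Hsf1. Further list genes were named after their values were seen, where few of a list passed a test. The genes, lists and tests were chosen with earlier results of these data known. An allele that all tumors share and the values of 1 listed gene are not reported here.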

Additional observations from a re-analysis of the deposited data

How the results depend on the processing

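None of the 10 genes was called between genotypes under any alternative. Over all genes the count of 0 became 457 with DESeq2, 235 with the leukocyte-marker score and 253 with the immediate early score as a covariate, and ranged from 0 to 1 when single tumors were left out. The exact permutation test gave Setd2 p = 0.004662 (mean log2 CPM differed by -0.81). The edgeR test, which compares mean counts, gave a close unadjusted p of 0.00486 and missed the threshold only after adjustment over all genes. Neither change passes 1. With library size only, the median log2 fold change of all genes moved from 0.03 to -0.11, and that of Hspd1 from 0.13 to -0.018. Leaving out single tumors gave log2 fold changes of -0.16 to 0.099 for Hspa8 and -0.016 to 0.28 for Hsph1, on both sides of 0.

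The correlations of same-numbered tumors' deviations ran from -0.664 to 0.657. They were -0.483 and -0.664 for replicates 3 and 4, whose tumors lay on opposite sides of the split in Hspa1a. The correlations therefore cannot decide whether the replicate numbers pair the tumors. The tumors with high Hspa1a carry the numbers 1 and 2 in KPY-Ctrl and 1 to 4 in KPY-Setd2KO, and what the numbers stand for is not stated. With a replicate block, no gene had an immediate early slope (0 genes and 0 of the 10), 4414 genes and 2 of the 10 had a leukocyte-marker slope, the log2 fold changes were 2.45 for Hspa1a, 1.90 for Hspa1b and 0.81 for Dnajb1 (adjusted p of 0.433 to 0.434), none of them called, that of Hspa8 was 0.017 and the Hsph1 leukocyte-marker slope 0.088.

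With both scores, 2219 genes and 2 of the 10 had a leukocyte-marker slope, and 685 genes and 3 of the 10 an immediate early slope. The leukocyte-marker slopes became -0.086 for Hspa1a, -0.097 for Hspa1b, -0.14 for Dnajb1, -0.056 for Hsp90aa1 and -0.040 for Hspd1, and the immediate early slopes -0.085 for Hspa8, 0.082 for Hspa9 and -0.029 for Hspe1. In this fit, chosen for leave-one-out runs after seeing the data, leaving out single tumors gave 222 to 1304 genes and 1 to 3 of the 10 with an immediate early slope, from -0.23 to 0.041 for Hspa8 and from -0.13 to 0.057 for Hspe1. With library size only, the leukocyte-marker slopes of Hsp90aa1 and Hspd1 were -0.026 and -0.055, those of Hsf1 (-0.11, adjusted p = 0.0284) and Hspa9 (-0.16, adjusted p = 0.00205) passed the threshold below 0, and the immediate early slopes of Hsf1, Hsph1 and Hspd1 were -0.079, -0.062 and -0.031. Without the 2 tumors farthest from the median score, 3 of the 10 genes had an immediate early slope, with -0.0047 for Hsf1 and -0.098 for Hsph1.

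Within the tumors on either side of the gap in the immediate early score, a division added after seeing the data, 0 genes and 0 of the 10 had a called slope, the genes of the score included, so these fits say nothing about stability. The slope of Hspa9 was 0.017 above the gap, and those below it were -0.031 for Hsf1, -0.82 for Hspa1a, -1.55 for Hspa1b, -0.23 for Hsp90aa1 and -0.37 for Dnajb1. Leaving out single tumors in the fits with 1 score moved the leukocyte-marker slopes of Hsf1 (-0.027 to 0.0043) and Hsph1 (-0.063 to 0.016) and the immediate early slopes of Hsf1 (-0.020 to 0.060) and Hsph1 (-0.027 to 0.095) across 0, none of them called. The causes of these shifts were not tested.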

Other observations

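Stromal and erythroid marker lists were also read. Acta2, a smooth muscle actin gene, ranged from 8.57 to 36.9 CPM in KPY-Ctrl (median 23.0) and from 2.05 to 9.75 CPM in KPY-Setd2KO (median 5.83), with a log2 fold change of -2.00 (standard error 0.39, adjusted p = 0.116 in edgeR's test). DESeq2 called it (-2.02, adjusted p = 0.000356), as did edgeR with the leukocyte-marker score (-1.89, adjusted p = 0.0351) and with the immediate early score (-1.81, adjusted p = 0.0399). Over the 9 fibroblast markers tested, the median was -0.12. The endothelial markers had a median of 0.98 over 10 genes, with the smallest p for Pecam1 (0.93, adjusted p = 0.237), and the 5 erythroid markers tested a median of 1.11, with the smallest p for Hbb-bt (1.74, adjusted p = 0.24). Of the lung epithelial markers, Napsa had the smallest p (-1.07, adjusted p = 0.314), and the list's median was -0.20. The leukocyte markers had a median of 0.33 between genotypes (smallest p for S100a8, log2 fold change 0.68, adjusted p = 0.696), and the immediate early genes one of 0.49 (smallest p for Junb, log2 fold change 1.00, adjusted p = 0.478).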
